A study of Mus musculus with 10 samples.

Results

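A set of 30 genes that mark the cells of the brain's blood vessels was followed in the hippocampus of hMAPT mice given an adeno-associated virus with circTau6. They were chosen by gene symbol, and 30 of the 30 were found among the 21956 genes of the deposited table. The list holds 18 genes of endothelial cells and 12 genes of mural cells, the pericytes and smooth muscle cells that wrap the vessel wall. For the description below the mural genes were divided into 7 that mark mainly pericytes and 5 of the contractile machinery of smooth muscle.

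The circTau6 group held 5 hippocampal libraries of hMAPT genotype, from tissue taken 80 days after injection of AAV-circTau6, at 6 months of age. The control group held 5 hippocampal libraries from mice of the same genotype and age, and what those mice were given is not said in the labels. The hMAPT genotype brings in the human tau gene, whose protein binds microtubules in neurons, and circTau6 is, by the title of the series, derived from MAPT. All 10 libraries shared the hMAPT genotype, and no hippocampus without it was analysed here. The labels do not say which promoter drives circTau6, which cells the virus reached, the sex of the mice, or whether each library came from a single mouse, so p-values measure the spread between these libraries.

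Endothelial cells line the vessels, and in the brain they are sealed by tight junctions and carry transporters that pass glucose, lipids and drugs selectively, an arrangement called the blood-brain barrier. Pericytes sit in the basement membrane of capillaries and are held there by platelet-derived growth factor signalling through the receptor encoded by Pdgfrb. Smooth muscle cells ring arterioles and set their width with actin and myosin filaments. In bulk tissue, fewer cells of a type and less RNA per cell cannot be told apart.

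Promoter sequences are shown for 4 members as a description, because the contractile and the endothelial genes each have a well-described promoter motif. Whether the motifs bear on the levels below was not tested. Contractile genes are known to be controlled through CArG boxes, which bind serum response factor, and Acta2 and Myl9 stand for that group. Flt1 and Kdr, the genes of the vascular endothelial growth factor receptors, stand for the endothelial group, whose genes are known to be bound by ETS factors at a GGAA core. Each window runs 5′ to 3′ on the strand of the gene from 250 bases before to 50 after its start, as given by RefSeq on GRCm38.p6. Capitals mark CArG boxes with at most 1 core base other than A or T in Acta2 (chr19:34255324-34255623, minus strand) and Myl9 (chr2:156775214-156775513, plus strand). In Flt1 (chr5:147725962-147726261, minus strand) and Kdr (chr5:75978406-75978705, minus strand) capitals mark GGAAGT on either strand.
Acta2: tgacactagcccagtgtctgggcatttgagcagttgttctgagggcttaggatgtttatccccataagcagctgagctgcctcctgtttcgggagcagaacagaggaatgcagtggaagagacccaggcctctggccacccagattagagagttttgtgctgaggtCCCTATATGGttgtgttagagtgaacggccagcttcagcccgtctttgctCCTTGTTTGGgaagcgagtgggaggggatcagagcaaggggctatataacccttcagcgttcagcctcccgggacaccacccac
Myl9: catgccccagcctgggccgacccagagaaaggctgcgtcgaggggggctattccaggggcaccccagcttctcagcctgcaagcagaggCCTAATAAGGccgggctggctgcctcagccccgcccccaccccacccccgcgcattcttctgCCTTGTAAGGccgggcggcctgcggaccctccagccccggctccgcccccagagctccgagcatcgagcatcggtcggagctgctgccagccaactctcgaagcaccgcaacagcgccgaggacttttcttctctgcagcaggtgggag
Flt1: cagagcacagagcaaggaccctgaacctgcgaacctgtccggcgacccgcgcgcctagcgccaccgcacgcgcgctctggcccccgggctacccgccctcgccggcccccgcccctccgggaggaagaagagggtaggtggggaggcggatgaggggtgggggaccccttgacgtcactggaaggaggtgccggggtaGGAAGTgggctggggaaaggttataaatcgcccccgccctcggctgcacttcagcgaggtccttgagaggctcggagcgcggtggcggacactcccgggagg
Kdr: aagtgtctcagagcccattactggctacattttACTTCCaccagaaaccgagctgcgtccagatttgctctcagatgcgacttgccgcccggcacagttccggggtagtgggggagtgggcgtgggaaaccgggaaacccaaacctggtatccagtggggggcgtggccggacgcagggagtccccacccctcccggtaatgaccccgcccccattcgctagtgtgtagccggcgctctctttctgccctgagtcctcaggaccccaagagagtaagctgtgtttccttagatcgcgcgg

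The Acta2 window held CArG matches that begin at bases 167 and 217, and the Myl9 window at bases 90 and 152. Flt1 held GGAAGT from base 199, and Kdr held its reverse complement from base 34. Promoters were available for 22 members, 14 endothelial and 8 mural; Pecam1, Cdh5, Esam, Vwf, Pdgfrb, Tagln, Myh11 and Higd1b are named only. A CArG box with no core mismatch was found in 1 of the 22, Myl9, against 1.63% of 32851 promoters of the same length. With at most 1 mismatch it was found in 7, namely Tek, Slco1a4, Ocln, Kdr, Eng, Acta2 and Myl9, against 9.98% of all promoters. The looser form was thus present in 5 of 14 endothelial and 2 of 8 mural promoters. GGAAGT was found in 6, namely Flt1, Tie1, Ly6c1, Kdr, Eng and Anpep, against 23.8% of all promoters. Both strands were searched, and matches of the looser CArG box and GGAAGT overlapped in 0 promoters of the members. A match is a description of the letters and not a site of binding.

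Total counts ranged from 14762952 to 17647138 per library, with a mean of 16640707 ± 1107184 (SD, n = 5) in circTau6 and 16066240 ± 1188746 (SD, n = 5) in control libraries. Reads of circTau6 itself were not analysed here, so the group of each library rests on its label; mouse Mapt, the host's own tau gene, had an edgeR log2 fold change of -0.11 ± 0.07 (SE, adjusted p = 0.981). Markers of the other cell types of the hippocampus were read beside the members. The epithelium of the choroid plexus, which lies next to the hippocampus, differed widely between libraries: its 13 genes, led by Ttr, Enpp2 and Kl, summed to 258.5 TPM in circTau6 replicate 5 and 268.8 TPM in control replicate 2, against 4666 to 13870 TPM in the other 8 libraries. The library circTau6 replicate 3 stands apart for the members, and values without it are given beside those that it moves.

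On the TPM scale, which is scaled to transcript length and allows genes to be compared per length, the highest control means belonged to Ly6c1 (94.1), Vtn (77.6), Rgs5 (76.4), Slc2a1 (73.5), Slco1a4 (60.1) and Itm2a (56.8). These 6 genes lay above Flt1, the next at 26.4 TPM, by more than the summed SDs of the neighbours. From Flt1 down to Tek (7.05) no neighbour in the order was separated by that much. Another gap lay between Tek and Tie1 (4.89), and the last between Kcnj8 (2.70) and Cnn1 (0.686). These gaps divide the order into 4 runs, but they compare neighbours only, and genes of 1 run can overlap the next. Tagln, placed above Tie1, had 4.82 and 4.67 TPM in control replicates 4 and 5, below the Tie1 mean.

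**Figure D1:**
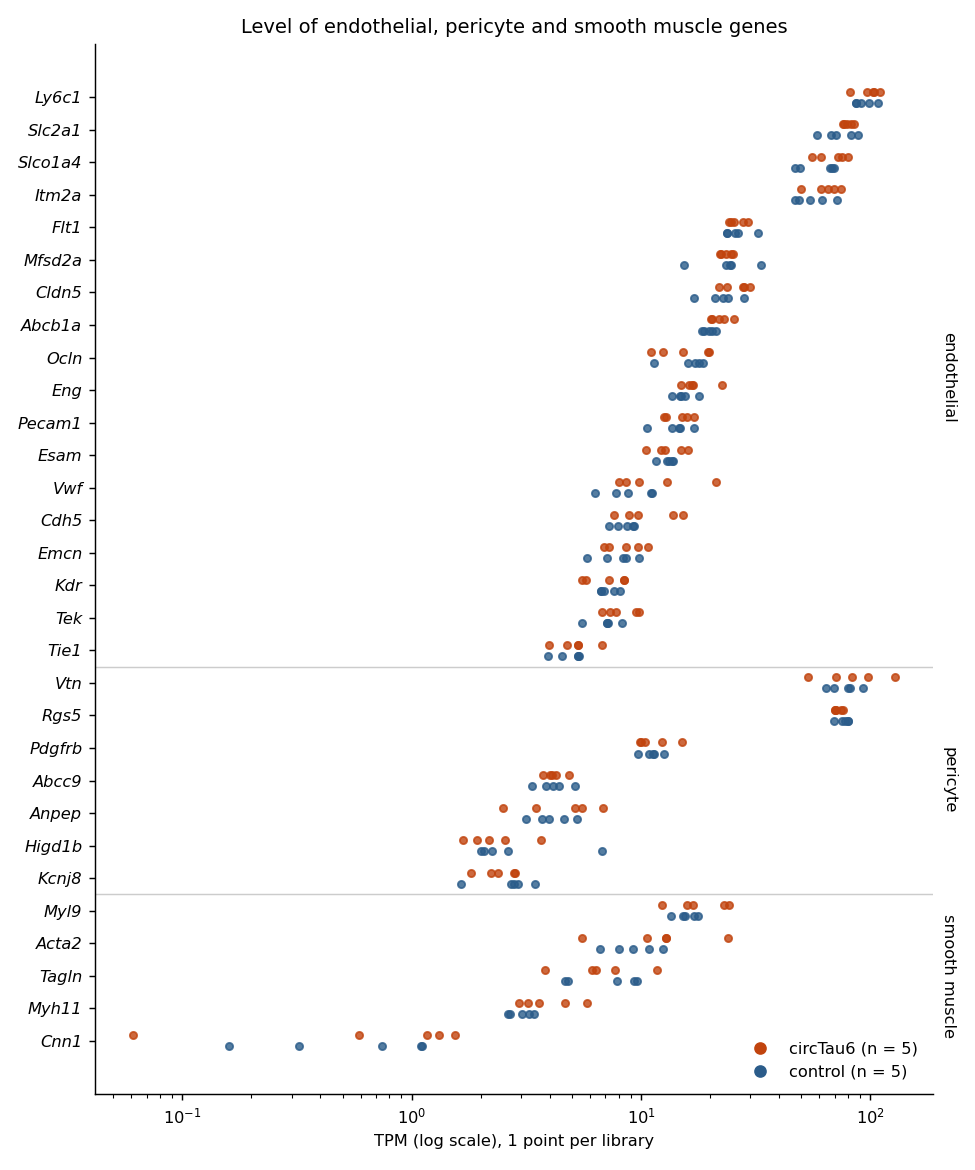
Level of each of the 30 genes in TPM on a log axis, with 1 point per library, circTau6 above control within each gene. The libraries of both groups overlap for all 30 genes, and the points of Acta2, Vwf, Tagln and Cnn1 are spread more widely than those of Rgs5.

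Between circTau6 and control libraries edgeR called 0 vascular genes, and 0 of the 14396 genes tested (0%) at an adjusted p under 0.05, with 637 at an unadjusted p under 0.05; limma voom also called 0, with 743. Of the members 29 passed the filter on low counts, all but Cnn1, and their lowest adjusted p was 0.981. Without adjustment, 3 members had a p under 0.05 and higher values in circTau6 libraries, Abcb1a, Myh11 and Anpep, and 0 had lower values, against 4.42% of all genes (2.58% higher and 1.85% lower). DESeq2, a second count test, called 0 members and 14 other genes (0.097%), with 3 members at an unadjusted p under 0.05, Vwf, Myh11 and Anpep, against 4.08% of genes. Groups overlapped for 30 of 30 members, while every circTau6 library lay above every control library for 0.472% of genes and below for 0.368%. The edgeR log2 fold change was positive for 22 of 29 members with a median of 0.12, against 49.9% of all genes and a median of -2e-04. In the authors' deposited table, 6 members had a p under 0.05, namely Vwf (0.0156), Myh11 (0.0185), Anpep (0.0225), Abcb1a (0.0262), Slc2a1 (0.0305) and Cdh5 (0.0436), against 3.06% of genes. In the same table their FDR was 0.987, and 0.0364% of all genes had an FDR under 0.05.

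A single library held most of the members' highest values. circTau6 replicate 3 held the highest CPM, the count scaled to library size, of 21 of the 29 members tested (72.4%), against 18.3% of all genes tested; it held the lowest of 0 members, against 20.2% of all genes. It was the highest for 14 of 18 endothelial, 3 of 7 pericyte and 4 of 5 smooth muscle genes. Without it, 15 of 29 members had a positive log2 fold change with a median of 0.0143, against 48.3% of all genes and a median of -0.003. In that fit 0 members had an unadjusted edgeR p under 0.05, against 475 of 14468 genes. Then 7 members had a negative value in place of a positive one, namely Pecam1, Tie1, Pdgfrb, Abcc9, Vtn, Acta2 and Tagln. Of the mural members tested, 3 of 11 were positive without that library and 8 of 11 with it, and of the endothelial members 12 of 18 without it and 14 of 18 with it. Whether these shares differ between the cell types was not tested. This library was picked because the members were high in it, so leaving it out lowers the circTau6 values by itself. With circTau6 replicate 2 left out instead, 24 of 29 members were positive with a median of 0.154, against 50.1% of all genes.

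**Figure D2:**
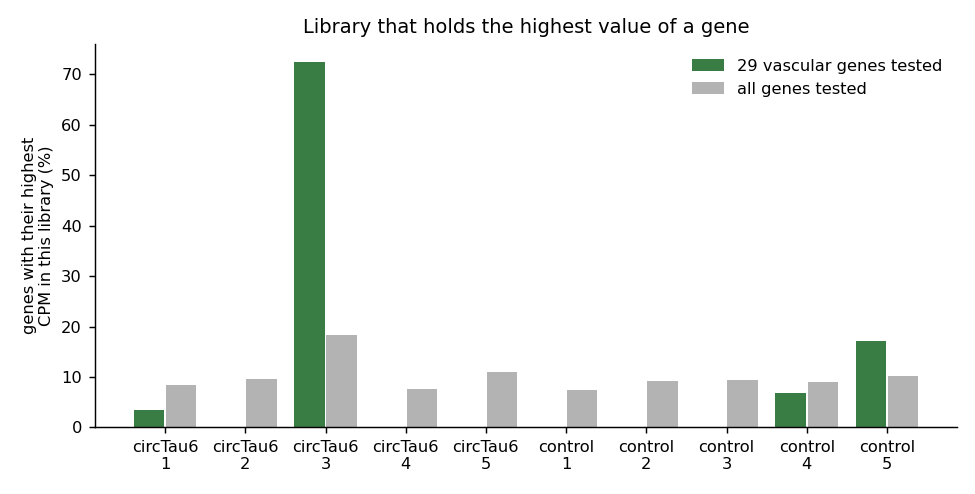
Share of genes whose highest CPM falls in each of the 10 libraries, for the 29 members tested (green) and all genes tested (grey). circTau6 replicate 3 holds 72.4% of the members' highest values against 18.3% over all genes, and control replicate 5 is next with 17.2% of the members.

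The plot of deviations by library shows the same members against the mean of the 10 libraries. In circTau6 replicate 3 the median deviation of the 29 members was 0.322 log2 CPM, and 26 of 29 lay above 0, against a median of 0.015 over all genes. circTau6 replicate 4 followed with 0.144 and 22 of 29 above 0, and then circTau6 replicate 1 with 0.058 and 20 of 29. The lowest medians were -0.179 in circTau6 replicate 2, with 5 of 29 above 0, and -0.159 in control replicate 4, with 10 of 29. The circTau6 group thus held the highest medians, in replicates 3, 4 and 1, and also the lowest. The control libraries lay between -0.159 and 0.044.

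**Figure D3:**
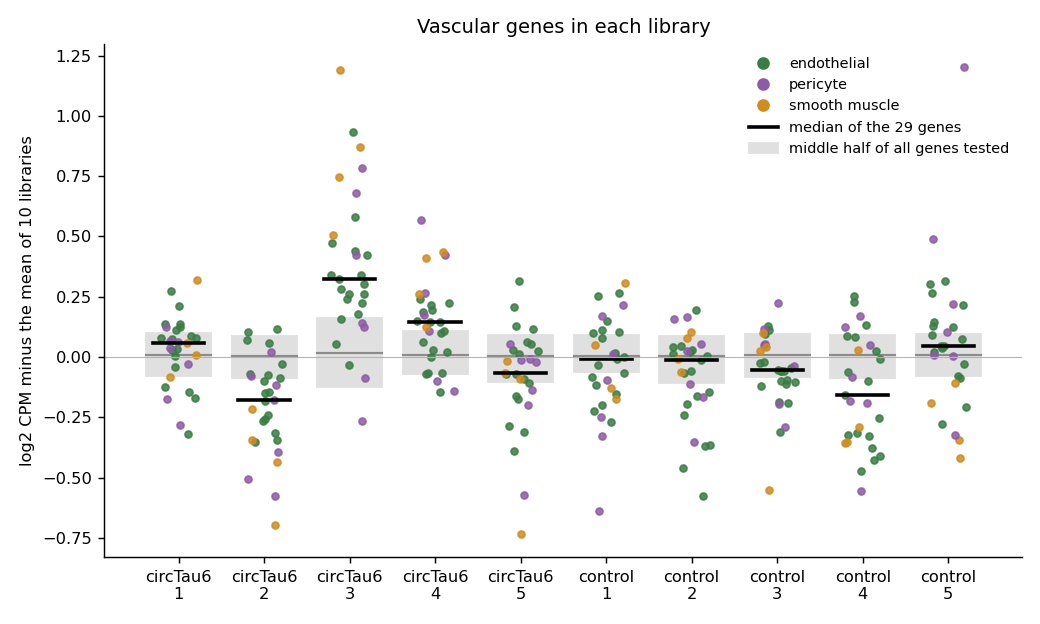
Deviation of each member's log2 CPM from its mean over the 10 libraries, coloured by cell type, with the members' median as a black line and the interquartile range of all genes as a grey box. Members sit high in circTau6 replicate 3 (median 0.322) and low in circTau6 replicate 2 (-0.179) and control replicate 4 (-0.159).

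For the endothelial junction genes the groups overlapped. Cldn5, which encodes the main tight junction protein of brain endothelium, had 16, 13.5, 17.1, 15.7 and 12.3 CPM in circTau6 replicates 1 to 5, against 13.7, 12, 13.3, 9.91 and 16 CPM in control replicates 1 to 5. Its log2 fold change was 0.20 ± 0.12 (SE), with 4 of 5 circTau6 libraries above the control mean, and 0.15 ± 0.13 (SE) without circTau6 replicate 3. Cdh5, the adhesion molecule of endothelial adherens junctions, had 15.6, 12.3, 22.2, 17.5 and 14.1 CPM in circTau6 libraries, against 14, 14.8, 13, 11.9 and 15 CPM in control libraries. For Cdh5, 3 circTau6 libraries exceeded all control libraries and circTau6 replicate 2 lay below most of them; the log2 fold change was 0.25 ± 0.14 (SE), or 0.11 ± 0.11 (SE) without circTau6 replicate 3. Pecam1, another adhesion molecule between endothelial cells, and Esam, an adhesion molecule of tight junctions, were closer to 0 at 0.05 ± 0.12 (SE) and -0.02 ± 0.12 (SE). Without circTau6 replicate 3 they stood at -0.02 ± 0.12 (SE) and -0.12 ± 0.11 (SE).

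Ocln, a tight junction protein that epithelia carry too, had 21.8, 14.1, 21.6, 18.4 and 13.7 CPM in circTau6 libraries, against 19.4, 13.9, 19.3, 19.1 and 21.7 CPM in control libraries. Its low libraries were circTau6 replicates 2 and 5 and control replicate 2, and the log2 fold change was -0.06 ± 0.15 (SE). Those 3 libraries also had the lowest sums of choroid plexus genes, 4666, 258.5 and 268.8 TPM in the same order. Without circTau6 replicate 5 and control replicate 2 the log2 fold change of Ocln was -0.07 ± 0.12 (SE). Whether choroid plexus RNA bears on the Ocln values was not tested.

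The growth factor receptors showed little difference. Flt1, which encodes a receptor for vascular endothelial growth factor that also serves as a decoy, had 64.7, 67.0, 78.5, 67.3 and 73.6 CPM in circTau6 libraries, against 63.3, 71.0, 65.2, 70.1 and 86.8 CPM in control libraries, with the highest value in control replicate 5. Kdr, the main signalling receptor for the same ligand, had 13.3 to 20 CPM in circTau6 libraries, against 16.2 to 19.4 CPM in control libraries. Their log2 fold changes were -0.02 ± 0.08 (SE) and -0.04 ± 0.12 (SE), or -0.07 ± 0.08 (SE) and -0.12 ± 0.12 (SE) without circTau6 replicate 3. Tek, the angiopoietin receptor, had 12.2, 14.3, 17.4, 13.1 and 17.1 CPM in circTau6 libraries, against 15.2, 13.2, 13.1, 10.2 and 12.9 CPM in control libraries. For Tek 2 circTau6 libraries exceeded every control library, and the log2 fold change was 0.19 ± 0.12 (SE), or 0.13 ± 0.12 (SE) without circTau6 replicate 3. Tie1, its partner receptor, stood at 0.08 ± 0.14 (SE), and Eng, a co-receptor for transforming growth factor beta, at 0.17 ± 0.11 (SE); without that library they stood at -0.04 ± 0.13 (SE) and 0.06 ± 0.09 (SE).

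Among the endothelial members Abcb1a had the lowest unadjusted p in edgeR, while Vwf had it in DESeq2, in limma voom and in the authors' deposited table. Abcb1a encodes P-glycoprotein, the pump that returns drugs to the blood, and had 40.9, 44.2, 51.2, 40.0 and 46.0 CPM in circTau6 libraries, against 41.1, 42.7, 38.8, 37.7 and 39.9 CPM in control libraries. For this pump 3 circTau6 libraries exceeded all control libraries and 2 lay within the control range; the log2 fold change was 0.15 ± 0.07 (SE), with an unadjusted edgeR p of 0.0412 and an adjusted p of 0.981. Without circTau6 replicate 3 it was 0.09 ± 0.06 (SE), with an unadjusted p of 0.136. Slc2a1, the glucose transporter of the barrier, had 95.9, 102, 97.3, 101 and 95.9 CPM in circTau6 libraries, against 81.8, 72.8, 87.6, 112 and 98.9 CPM in control libraries. The circTau6 values were tightly grouped inside a wide control range, all 5 of them above the control mean, and the log2 fold change was 0.12 ± 0.09 (SE). It was 0.05 ± 0.08 (SE) without control replicate 2 and 0.21 ± 0.07 (SE) without control replicate 4, with an unadjusted edgeR p of 0.0107 and an adjusted p of 1 in the second case. Slco1a4, an organic anion transporter, and Mfsd2a, which moves omega-3 lipids into the brain, stood at 0.10 ± 0.08 (SE) and 0.0033 ± 0.13 (SE), and Slco1a4 at 0.06 ± 0.09 (SE) without circTau6 replicate 3. Abcb1a and Slco1a4 have related genes in the table, Abcb1b and Slco1a5, and whether reads were shared between them was not tested.

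Of the 18 endothelial members, Vwf had the largest log2 fold change. It encodes von Willebrand factor, a clotting protein that is stored by endothelial cells, mostly of larger vessels. It had 28.7, 24.4, 49.9, 28.9 and 26.6 CPM in circTau6 libraries, against 26.1, 17.4, 21, 20.1 and 28.5 CPM in control libraries. All 5 circTau6 libraries lay above the control mean, but control replicates 1 and 5 lay within the circTau6 range, and the value of circTau6 replicate 3 was far above the rest. The log2 fold change was 0.49 ± 0.22 (SE), with an unadjusted edgeR p of 0.0502 and 0.00873 in DESeq2. Without circTau6 replicate 3 it was 0.26 ± 0.13 (SE), with an unadjusted edgeR p of 0.0605. The remaining endothelial members had log2 fold changes of 0.07 ± 0.08 (SE) for Ly6c1, a surface protein with a related gene Ly6c2, 0.16 ± 0.13 (SE) for Itm2a, a membrane protein, and 0.16 ± 0.15 (SE) for Emcn, a sialomucin of capillaries and veins. In the fit without circTau6 replicate 3 they were 0.03 ± 0.08 (SE) for Ly6c1, 0.09 ± 0.13 (SE) for Itm2a and 0.06 ± 0.15 (SE) for Emcn.

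Of the 7 pericyte genes 4 had a positive and 3 a negative log2 fold change, and the median was 0.0105. Rgs5, a regulator of G protein signalling that is abundant in pericytes, had 126, 116, 115, 114 and 122 CPM in circTau6 libraries, against 115, 127, 127, 134 and 132 CPM in control libraries. Of the 5 circTau6 libraries 0 lay above the control mean, yet control replicate 1 lay among the circTau6 values, and the log2 fold change was -0.10 ± 0.05 (SE) with an unadjusted edgeR p of 0.0701. circTau6 replicate 3 was not its highest library, and its log2 fold change without that library was -0.09 ± 0.05 (SE). Rgs5 varied little within groups, with an SD of 0.074 log2 CPM, lower than that of all but 14.5% of genes tested.

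Pdgfrb, the receptor that recruits pericytes, had 21.7, 21.7, 32.9, 26.4 and 22.3 CPM in circTau6 libraries, against 24.8, 27.5, 23.9, 21.5 and 24.7 CPM in control libraries. Only 2 of 5 circTau6 libraries exceeded the control mean, and the log2 fold change was 0.03 ± 0.11 (SE), or -0.09 ± 0.09 (SE) without circTau6 replicate 3. Kcnj8 and Abcc9, which encode the pore and the regulatory subunit of the vascular ATP-sensitive potassium channel, stood at -0.19 ± 0.23 (SE) and 0.01 ± 0.11 (SE). Vtn, which encodes the matrix protein vitronectin, had 58.7, 37.7, 90.1, 67.6 and 49.0 CPM in circTau6 libraries, against 65.3, 57.2, 46.0, 49.5 and 56.3 CPM in control libraries. The circTau6 group held both the highest and the lowest Vtn library, and the log2 fold change was 0.15 ± 0.22 (SE), or -0.04 ± 0.18 (SE) without circTau6 replicate 3.

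Anpep, which encodes the surface peptidase CD13, had 5.33, 3.69, 8.50, 7.30 and 4.83 CPM in circTau6 libraries, against 5.50, 4.33, 4.25, 3.28 and 3.87 CPM in control libraries. The 2 highest circTau6 libraries exceeded all control libraries, and the log2 fold change was 0.48 ± 0.21 (SE), with an unadjusted edgeR p of 0.0394. Without circTau6 replicate 3 it was 0.31 ± 0.20 (SE), with an unadjusted p of 0.145. On log2(TPM + 0.1) its log2 fold change in limma was 0.12 ± 0.25 (SE). Anpep is known from fibroblasts and myeloid cells as well. Higd1b, a small mitochondrial membrane protein that marks pericytes, rested on few reads, with counts of 10, 8, 10, 17 and 11 in circTau6 libraries, against 9, 9, 13, 10 and 27 in control libraries. The value of control replicate 5 stood apart, and the log2 fold change was -0.36 ± 0.40 (SE).

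All 4 contractile genes tested had a positive edgeR log2 fold change (median 0.29; Tagln was negative on the TPM scale), and all 4 were highest in circTau6 replicate 3; without it the median was 0.0378, with 2 of 4 positive. Acta2, the actin of vascular smooth muscle, whose promoter is printed above, had 9.46, 5.91, 17.4, 8.24 and 4.49 CPM in circTau6 libraries, against 7.83, 8.13, 5.11, 7.70 and 6.61 CPM in control libraries. The circTau6 group spanned the whole control range on both sides. The log2 fold change was 0.37 ± 0.33 (SE), and -0.0061 ± 0.20 (SE) without circTau6 replicate 3. Myh11, the heavy chain of smooth muscle myosin, had 9.29, 7.67, 15, 11.9 and 8.37 CPM in circTau6 libraries, against 7.89, 8.55, 9.07, 6.96 and 7.01 CPM in control libraries. For Myh11, 3 circTau6 libraries exceeded all control libraries, and the log2 fold change was 0.40 ± 0.17 (SE), with an unadjusted edgeR p of 0.0301. Without circTau6 replicate 3 it was 0.23 ± 0.14 (SE), with an unadjusted p of 0.119.

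Myl9, a regulatory light chain of myosin, had 7.20, 5.62, 10.9, 10.4 and 7.55 CPM in circTau6 libraries, against 6.99, 8.07, 7.87, 6.23 and 7.08 CPM in control libraries. Tagln, the actin-binding protein transgelin, had 4.08, 2.46, 7.52, 4.89 and 3.88 CPM in circTau6 libraries, against 5.05, 4.04, 4.36, 3.15 and 3.00 CPM in control libraries. For both genes the circTau6 libraries reached above and below all control libraries, and the log2 fold changes were 0.20 ± 0.16 (SE) and 0.22 ± 0.25 (SE). Without circTau6 replicate 3 they were 0.08 ± 0.16 (SE) and -0.04 ± 0.22 (SE), and Tagln stood at -0.05 ± 0.29 (SE) in limma on log2(TPM + 0.1). In GRCm38, Tagln overlaps Pcsk7 on the opposite strand, and Eng overlaps Fpgs in the same way; the sources used here do not say whether the counting used the strand. Cnn1, which encodes calponin, was near the limit of detection, with counts of 13, 1, 11, 11 and 3 in circTau6 libraries, against 4, 8, 2, 9 and 2 in control libraries. An exact two-sided permutation test of its log2 CPM between the groups gave p = 0.587.

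**Figure D4:**
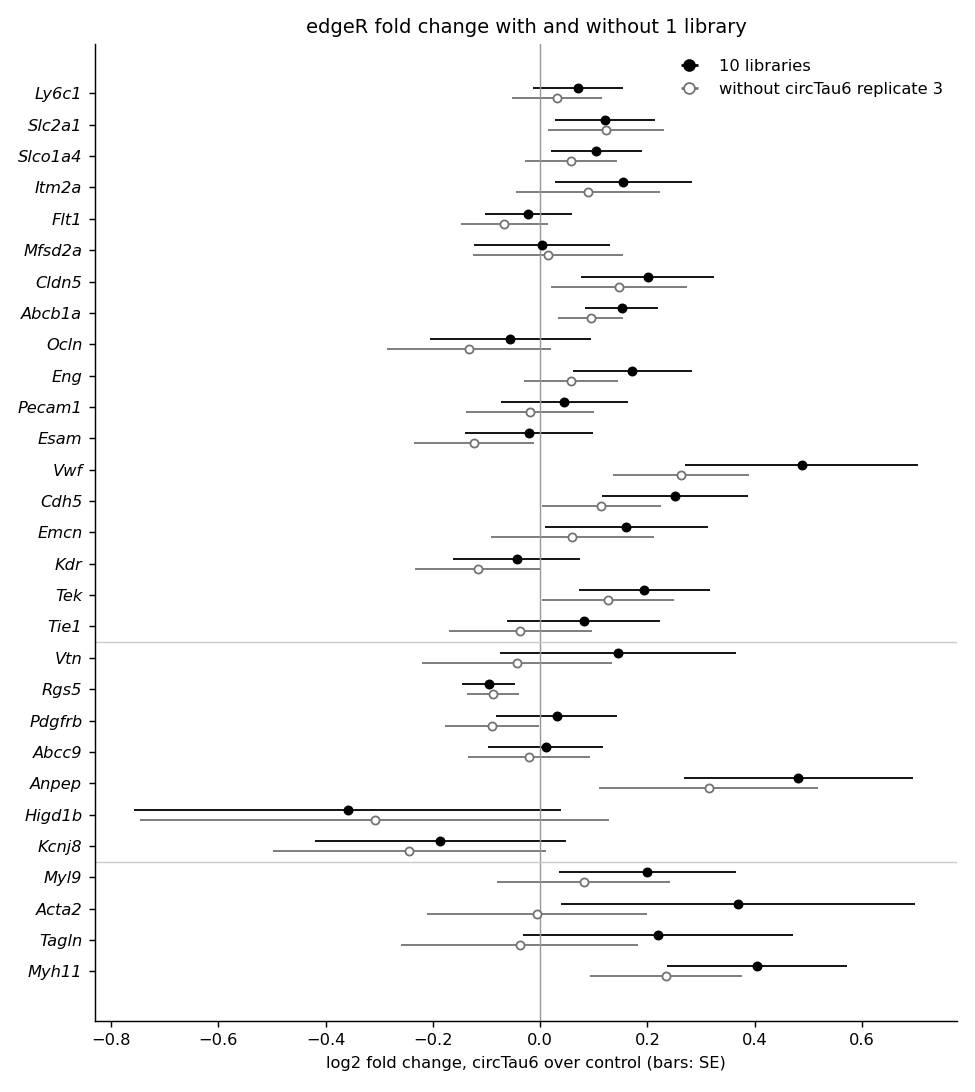
edgeR log2 fold change of circTau6 over control (bars, SE) for the 29 members tested, from 10 libraries (filled) and without circTau6 replicate 3 (open). Acta2 lies at 0.37 with that library and at -0.0061 without it, while Rgs5 lies at -0.10 with it and -0.09 without it.

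Summed over each cell type, the levels overlapped too. The 18 endothelial genes summed to 525.2, 458.9, 595.2, 538.7 and 499 TPM in circTau6 libraries, against 497.6, 457.6, 470.7, 465.8 and 512.5 TPM in control libraries, with means of 523.4 ± 50.4 and 480.8 ± 23.2 TPM (SD, n = 5 each). The 7 pericyte genes averaged 184.2 ± 32.3 TPM in circTau6 and 179.3 ± 10.6 TPM in control libraries (SD, n = 5 each). The 5 contractile genes averaged 43.68 ± 15 TPM in circTau6 and 36.21 ± 5.42 TPM in control libraries (SD, n = 5 each). With circTau6 replicate 3 left out the circTau6 means were 505.4 ± 35.1 TPM for the endothelial, 172.7 ± 22.5 TPM for the pericyte and 37.93 ± 9.01 TPM for the contractile genes (SD over the other 4 libraries), and the pericyte mean then lay below that of the control libraries. In all 3 sums the circTau6 SD exceeded the control SD, and circTau6 replicate 3 was the highest library and circTau6 replicate 2 the lowest of its group. Vtn and Rgs5 made up most of the pericyte sum, with control means of 77.6 and 76.4 TPM. In circTau6 replicate 3 Vtn had 128 TPM and Rgs5 69.9 TPM, so the high pericyte sum there reflects mainly Vtn.

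**Figure D5:**
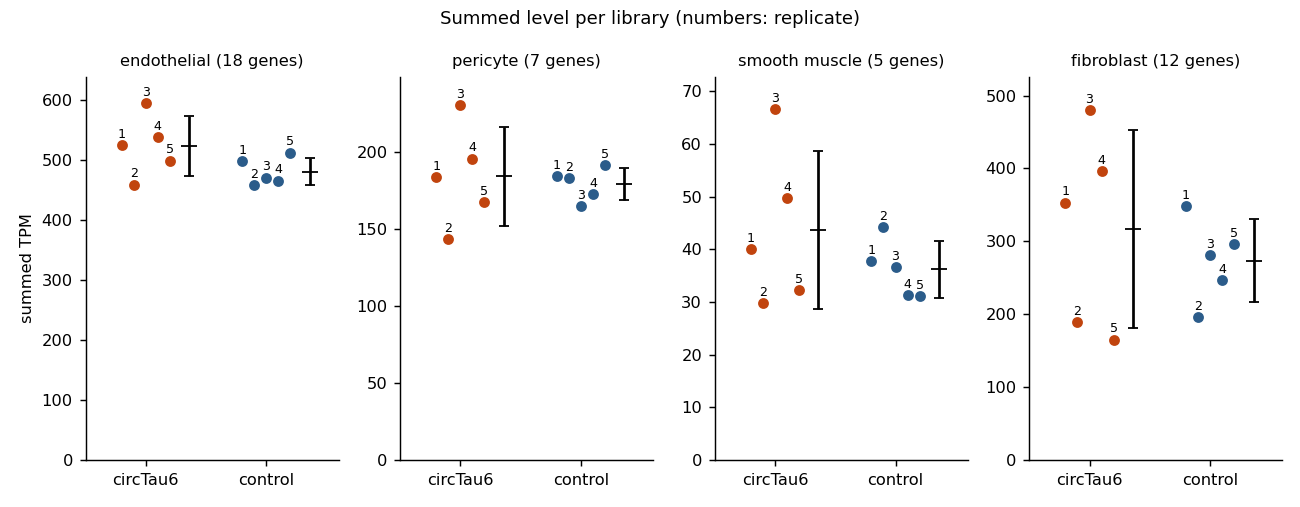
Summed TPM of the endothelial, pericyte and smooth muscle members and of the 12 fibroblast genes, 1 point per library with its replicate number, and the mean and SD (n = 5) beside each group. In all 4 panels circTau6 replicate 3 is the highest point, at 595.2, 230.3, 66.66 and 479.9 TPM. Of its pericyte sum, 128 TPM belong to Vtn.

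Within groups the members varied more than most genes. The median within-group SD was 0.231 log2 CPM for the 29 members, against 0.139 for all genes tested. It was 0.218 for endothelial, 0.362 for pericyte and 0.379 for the 4 contractile genes tested. Acta2 had 0.551, above 93.5% of genes.

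A total of 8 pairs of genes were correlated across the 10 libraries on log2 CPM, and 0 of them had an adjusted permutation p under 0.05 (Benjamini-Hochberg over the 8). Acta2 and Myh11, both of the contractile machinery, had r = 0.685 and rho = 0.588, with permutation p of 0.0376 and 0.0795, adjusted 0.0835 and 0.214. Without the 2 libraries farthest from the Acta2 median, circTau6 replicates 3 and 5, r was 0.267. Acta2 and Tagln gave r = 0.662 and rho = 0.588 with permutation p of 0.0417 and 0.0803, adjusted 0.0835 and 0.214, and r = 0.366 without the same libraries. The channel subunits Kcnj8 and Abcc9 gave r = 0.66 and rho = 0.515 with permutation p of 0.0393 and 0.134, adjusted 0.0835 and 0.214, and r = 0.402 without control replicate 1 and circTau6 replicate 5. Leaving out the farthest libraries narrows the range of the first gene, which can lower r by itself. The lower values therefore do not show whether these 3 relations rested on those libraries. The pericyte genes Pdgfrb and Rgs5 gave r = -0.375 and rho = -0.406 (permutation p of 0.295 and 0.248, adjusted 0.337 and 0.284). Cldn5 gave r of 0.245 with Flt1, 0.484 with Pdgfrb and 0.473 with Acta2, with permutation p of 0.492, 0.157 and 0.169 and rho of 0.127, 0.418 and 0.515. Their adjusted permutation p for r was 0.492, 0.225 and 0.225, and without control replicate 4 and circTau6 replicate 3 r was 0.157, -0.088 and 0.507.

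Fibroblast genes were high in the same library as the contractile genes. Col1a1, a collagen of fibroblasts in the meninges and around vessels, correlated with Acta2 at r = 0.697 and rho = 0.709 (permutation p of 0.023 and 0.0264, adjusted 0.0835 and 0.211), and at 0.47 without the 2 farthest libraries. The 12 fibroblast genes, led by Igf2, Dcn and Pdgfra, summed to 353.2, 189.3, 479.9, 396.2 and 165 TPM in circTau6 libraries, against 348.3, 196, 281, 246.9 and 296.2 TPM in control libraries, and 10 of the 12 had their highest value in circTau6 replicate 3. Of the choroid plexus genes, 8 of 13 did, with sums of 9701, 4666, 13870, 11450 and 258.5 TPM in circTau6 libraries, against 9340, 268.8, 11410, 8766 and 7424 TPM in control libraries. Border macrophage genes, led by Mrc1, F13a1 and Pf4, summed to 18.38 TPM in circTau6 replicate 3, against 5.143 to 15.86 TPM in the other 9 libraries. Without the 2 libraries poor in choroid plexus RNA, circTau6 replicate 5 and control replicate 2, 21 of 29 members were positive with a median of 0.14. In that fit 48.5% of all genes were positive, with a median of -0.0042. Over all genes tested, 18.3% had their highest value in circTau6 replicate 3. The part of fibroblast and macrophage RNA in the members' values was not tested.

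Lists of other cell types varied among the libraries. Red blood cell genes, led by Hbb-bs, Hba-a2 and Hba-a1, were highest in control replicate 3 with 245.2 TPM and lowest in circTau6 replicate 5 with 11.52 TPM, and stood at 61.52 TPM in circTau6 replicate 3. Neuronal genes, led by Snap25, Syt1 and Map2, summed to 5241 TPM in circTau6 replicate 3 and to 5547 to 6173 TPM in the other 9 libraries. Astrocyte genes, led by Aldoc, Slc1a2 and Slc1a3, summed to 2364 TPM in it, within the range of 2203 to 2589 TPM of the others. Microglial genes, among them Csf1r and P2ry12, summed to 413.8 TPM in it, within the range of the others. Their sums were 412.4 to 447.5 TPM in circTau6 libraries, against 362.8 to 396.5 TPM in control libraries. Of the 8 genes 5, P2ry12 not among them, had higher values in circTau6 libraries at an unadjusted edgeR p under 0.05. Over all genes the share was 2.58%, and without circTau6 replicate 3 it was 4 of the 8. Ependymal genes, led by Ccdc153, Rarres2 and Dynlrb2, summed to 79.08 TPM in it, against 32.01 to 76.56 TPM in the others. Plvap, a marker of fenestrated vessels such as those of the choroid plexus, had 8.55 CPM in it, against 3.60 to 12.2 CPM in the others.

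Base composition moved with circTau6 replicate 3 as well. Across 14371 genes its deviation from the 10-library mean correlated with the GC content of the longest annotated transcript at r = 0.284, against -0.068 to -0.009 in the other 9 libraries, given as a description. The members' median GC content was 52.4%, against 49.7% for all genes. The members lay 0.357 log2 CPM above the mean of the other 9 libraries in the median, against 0.0161 for all genes. Among genes of similar GC content (5 equal bins), 26 of 29 members lay above the median of their bin in that library. The library was picked for its high member values, so this count is a description only. The part of base composition in those values was not tested.

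The genes around the members were read from lists of the same pathways, 115 genes in all, of which edgeR and limma voom tested 110 and DESeq2 all 115. edgeR, DESeq2 and limma voom each called 0 of them; at an unadjusted p under 0.05 edgeR had 9, DESeq2 8 and limma voom 8, all with higher values in circTau6 libraries, against 4.42% of all genes in edgeR. Of 25 ligands and receptors that guide vessel growth and mural recruitment, 15 had a positive and 10 a negative log2 fold change, and 3 had an unadjusted p under 0.05. Ptprb, a phosphatase that restrains the Tek receptor, had 55.4, 64.8, 73.6, 64.2 and 63.3 CPM in circTau6 libraries, against 53.2, 61.3, 51.8, 52.2 and 55.7 CPM in control libraries. For Ptprb, 4 circTau6 libraries exceeded all control libraries, and the log2 fold change was 0.23 ± 0.07 (SE), with an unadjusted edgeR p of 0.00555 and 0.0161 without circTau6 replicate 3. Tgfbr2 and Acvrl1, receptors of the transforming growth factor beta family, stood at 0.33 ± 0.12 (SE) and 0.28 ± 0.12 (SE), and Notch1, a receptor for vessel branching signals, at 0.11 ± 0.06 (SE). The unadjusted edgeR p was 0.0127 for Tgfbr2 and 0.0315 for Acvrl1. Without circTau6 replicate 3 they stood at 0.26 ± 0.11 (SE) and 0.22 ± 0.12 (SE), with unadjusted edgeR p of 0.0349 and 0.0909.

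Of 18 genes of barrier induction by Wnt and Norrin, 10 were positive and 8 negative, with 1 at an unadjusted p under 0.05. Adgra2, the co-receptor through which Wnt7 ligands act on brain endothelium, had 16.5, 15.7, 22.8, 18.5 and 14.6 CPM in circTau6 libraries, against 15.1, 13.5, 13.8, 12.4 and 14.8 CPM in control libraries. All but 1 circTau6 library exceeded every control library, and the log2 fold change was 0.34 ± 0.11 (SE) with an unadjusted edgeR p of 0.00844, or 0.0276 without circTau6 replicate 3. Axin2, a general target of Wnt signalling, stood at 0.14 ± 0.08 (SE), and Wnt7a itself at -0.15 ± 0.13 (SE).

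Of 22 other transporters and junction genes, 15 were positive and 7 negative, with 1 at an unadjusted p under 0.05. This was Slco2b1, an organic anion transporter, with 24.4, 22, 24.7, 22.5 and 21.8 CPM in circTau6 libraries, against 21.8, 18.6, 17.5, 19.2 and 21.1 CPM in control libraries. The log2 fold change was 0.23 ± 0.08 (SE), with an unadjusted edgeR p of 0.00863 and 0.0223 without circTau6 replicate 3. Cavin1, a caveolar coat protein, Slc3a2, the heavy chain of amino acid transporters, and Slc22a8, an organic anion transporter, stood at 0.28 ± 0.15 (SE), 0.11 ± 0.07 (SE) and 0.42 ± 0.27 (SE). Leaving out circTau6 replicate 3, Cavin1 stood at 0.16 ± 0.14 (SE), Slc3a2 at 0.07 ± 0.06 (SE) and Slc22a8 at 0.16 ± 0.19 (SE).

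Of 14 endothelial activation and clotting genes 11 were tested, 8 positive and 3 negative, with 1 at an unadjusted p under 0.05. Icam1, an adhesion molecule for leukocytes that microglia can also make, had 4.14, 2.75, 6.32, 3.89 and 3.40 CPM in circTau6 libraries, against 2.39, 2.97, 1.72, 2.68 and 3.20 CPM in control libraries. The log2 fold change was 0.66 ± 0.23 (SE), with an unadjusted edgeR p of 0.0124 and 0.0552 without circTau6 replicate 3; the part of microglia in it was not tested. Plat, an activator of plasminogen, stood at 0.12 ± 0.08 (SE), and Lcn2, an acute phase protein, at -1.79 ± 1.09 (SE). Lcn2 had an unadjusted edgeR p of 0.139; without circTau6 replicate 3 it stood at -2.98 ± 1.17 (SE), with an unadjusted p of 0.0372.

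Of 24 other pericyte and smooth muscle genes 22 were tested, 14 positive and 8 negative, with 2 at an unadjusted p under 0.05. Cspg4, the proteoglycan NG2 of pericytes and oligodendrocyte precursors, had 17.9, 18.9, 23.3, 20.3 and 20.4 CPM in circTau6 libraries, against 16.2, 16.6, 15.8, 14.3 and 20.8 CPM in control libraries. The log2 fold change was 0.27 ± 0.10 (SE), with an unadjusted edgeR p of 0.0186 and 0.0556 without circTau6 replicate 3. Mylk, the kinase that switches on smooth muscle myosin, stood at 0.36 ± 0.15 (SE), with 26.5 CPM in circTau6 replicate 3 and 12.2 to 18.5 CPM in the other 9 libraries. Its unadjusted edgeR p was 0.035, and without that library it stood at 0.19 ± 0.11 (SE) with an unadjusted p of 0.101. Cd248, a surface protein of pericytes and fibroblasts, stood at 0.36 ± 0.20 (SE) and Sncg, a synuclein, at 0.50 ± 0.31 (SE).

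Of the 12 vascular basement membrane genes, 9 had their highest value in circTau6 replicate 3, against 18.3% of all genes tested. Their sum was 449.5 TPM there, against 335.7 to 372.1 TPM in the other 9 libraries. Sparc, with a mean of 224 TPM over all libraries, was the largest part of that sum. The basement membrane genes were positive in 8 cases and negative in 4, with 1 at an unadjusted p under 0.05. The laminin chain genes Lama2, Lama4, Lamc1 and Lamb2 stood at 0.20 ± 0.09 (SE), 0.32 ± 0.17 (SE), 0.10 ± 0.06 (SE) and 0.14 ± 0.13 (SE). Lama2 had an unadjusted edgeR p of 0.0436, and of 0.136 without circTau6 replicate 3. Without it Lama4 stood at 0.14 ± 0.15 (SE) and Lamb2 at 0.0229 ± 0.10 (SE). The adjusted edgeR p of every pathway gene named here was 0.981, except Sparc with 0.983.

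Of the members described by values in every library, Vwf lies in GRCm38 on chromosome 6 from 125546774 to 125686679, Abcb1a on chromosome 5 from 8660077 to 8748575, and Anpep on chromosome 7 from 79821803 to 79861059. Myh11 lies on chromosome 16 from 14194535 to 14291372, Acta2 on chromosome 19 from 34241090 to 34255590, and Rgs5 on chromosome 1 from 169655501 to 169695813. Their IDs are ENSMUSG00000001930, ENSMUSG00000040584, ENSMUSG00000039062, ENSMUSG00000018830, ENSMUSG00000035783 and ENSMUSG00000026678 in that order.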

How the data were processed

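Hippocampal RNA of the 10 libraries was depleted of ribosomal RNA and read as strand-specific 150 bp pairs, with RNA integrity numbers above 8.0, per the labels' protocols. Per the file headers, the authors deposited a count and a TPM (abundance scaled to transcript length and library) for 21956 genes in each library. StringTie 1.3.1 and RSEM are listed in the submitters' processing notes, without their roles; the aligner, the build and the annotation: not given in the sources used here. In 108 entries a count of 0 stands beside a TPM above 0, so the deposited counts may be rounded estimates; they were used as deposited. The authors' deposited log2 fold change, p-value and FDR come from their own comparison, by a test that no source used here names.

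Counts were tested with edgeR 4.0.16 in R 4.3.3 over all 10 libraries: filterByExpr, TMM scaling, robust quasi-likelihood fit and Benjamini-Hochberg adjustment over the 14396 genes kept, with a threshold of 0.05. An SE is the log2 fold change over the square root of F. Log2 CPM used a prior count of 2. Permutation tests of correlations drew 100000 resamples in scipy 1.17.1. Alternatives were DESeq2 1.42.0, limma 3.58.1 (voom with quality weights, or log2 of TPM + 0.1), RLE size factors, library totals, other filters, a replicate block, and leaving out libraries. The count test was tested on simulated data. Coordinates come from GENCODE on GRCm38 by gene ID, and promoters from RefSeq on GRCm38.p6.

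A floor of 3 counts equals 0.204 CPM in the shallowest library and covers counting error only. Mean chi-square per gene between libraries was 4.09 to 29.4 over 45 pairs, so 0 pairs agreed within sampling noise. Members and lists were chosen with earlier results of these data known. All members are named. Of each pathway list up to 4 tested genes with the lowest unadjusted p are named, with Sparc added for its part of a sum. Of each list of another cell type up to 3 genes with the highest mean TPM are named. A few genes that these rules pick are not reported here.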

Additional observations from a re-analysis of the deposited data

Results flagged for a closer look

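Each member was examined in each group for a library far from the other 4, measured on log2 CPM as the gap to its nearest neighbour over the range of the group. Of 60 such groups 3 stood out above the critical value of 0.71, and chance alone picks out about 5 in 100. Vwf was far higher in circTau6 replicate 3 than in the other circTau6 libraries, with a gap of 0.761 of the range. Ocln was far lower in control replicate 2 than in the other control libraries, with 0.717 of the range. That library had 268.8 TPM of choroid plexus genes, and a link to Ocln was not tested. Higd1b was far higher in control replicate 5 than in the other control libraries, with 0.74 of the range, on a count of 27.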

How the results depend on the processing

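Across 19 alternatives 0 members were called, and the lowest adjusted p was 0.726. Of 550 fold-change values under them 513 kept their direction and 37 reversed. The number of genes called was 14 in DESeq2, 2 with library totals only, 2 with no filter and 3 without both libraries poor in choroid plexus RNA, and 0 to 4 when leaving out each library. The number of members with an unadjusted p under 0.05 was 0 in limma on TPM, and 0 to 4 when leaving out each library. The count of positive members then ran from 15, without circTau6 replicate 3, to 26. Replicate numbers did not pair the libraries (correlations of same-numbered libraries of -0.076 to 0.136, with 1 of 10 closest to its own number), and a replicate block gave 4 called genes, 0 of them members.

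Reversed log2 fold changes were 0.002 for Flt1 and 0.004 for Esam with library totals, and with limma on TPM 0.0033 for Flt1, 0.0089 for Esam, -0.0033 for Mfsd2a and -0.0465 for Tagln. Voom gave -0.0045 for Pdgfrb. Without the choroid-poor libraries they were -0.15 for Mfsd2a, 0.063 for Kdr and -0.0119 for Abcc9. Leaving out each library gave -0.0368 to 0.119 for Pecam1, -0.0666 to 0.0584 for Flt1, -0.0368 to 0.162 for Tie1, -0.123 to 0.0508 for Esam, -0.0967 to 0.0892 for Mfsd2a, -0.146 to 0.0243 for Ocln and -0.116 to 0.0299 for Kdr. It gave -0.09 to 0.0781 for Pdgfrb, -0.0618 to 0.0702 for Abcc9, -0.0435 to 0.275 for Vtn, -0.0061 to 0.537 for Acta2, -0.0383 to 0.377 for Tagln and -0.55 to 0.0795 for Higd1b. The cause was not tested. All 104 alternative values of the 8 pair correlations stayed above an adjusted p of 0.05. Low counts limit Cnn1 and Higd1b most.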
